A study of Mus musculus with 4 samples.

Results

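Complexes II to V of the oxidative phosphorylation chain were followed through 33 nuclear genes that encode their subunits, among the 43346 gene identifiers measured. The members were taken by name, with 4 of complex II, 9 of complex III, 6 of complex IV and 14 of complex V. All 33 were found by symbol in the count tables, and all 33 passed the filter on low counts, as did 16009 genes in all. The double knockout hearts were labelled MRTFA/B double knockout on a mixed strain background, with 2 libraries, and the hearts they were set against were labelled wild type on the ICR background, also with 2 libraries. Both groups were collected on postnatal day 0. MRTFA and MRTFB, encoded by Mrtfa and Mrtfb, are coactivators of serum response factor. Genotype and strain background cannot be told apart here. The labels used here name no allele, no Cre driver and no pooling of animals. Nor do they state that replicate libraries are separate animals, and the p-values then rest on a spread that may be technical.

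In the inner mitochondrial membrane, complex II oxidises succinate and hands its electrons to ubiquinone, complex III passes electrons from ubiquinol to cytochrome c, and complex IV gives them to oxygen. Complexes III and IV pump protons, and complex V, the ATP synthase, makes ATP as protons flow back through it. Complex II is encoded wholly in the nucleus, whereas complexes III, IV and V also hold subunits made from mitochondrial DNA. The heart is among the tissues richest in these complexes, and around birth its muscle turns from glycolysis towards oxidative metabolism.

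Total counts were 27328195 and 16175259 in double knockout libraries 1 and 2, and 29460641 and 25205257 in wild type libraries 1 and 2. Levels are given as CPM, counts relative to library size, scaled by TMM factors that correct for library composition. A log2 fold change is double knockout over wild type, from edgeR. Its standard error (SE) was worked out as its absolute value divided by the square root of edgeR's quasi-likelihood F statistic. Mrtfa was at 3.35 and 2.26 CPM in double knockout hearts, against 9.06 and 11.1 CPM in wild type hearts. Mrtfb was at 46.0 and 49.6 CPM in double knockout hearts, against 46.9 and 56.8 CPM in wild type hearts, a sum over all exons that checks nothing about a deletion of part of the gene. Markers of heart muscle were present throughout: the 12 cardiomyocyte markers summed to 52929 and 49423 CPM in the double knockout libraries and to 55256 and 53872 CPM in the wild type libraries.

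Transcripts of complexes II to V lay lower in the double knockout hearts. Every one of the 33 members had a negative log2 fold change, where 48.7% of all genes tested did, and the members' median was -0.38 against 0.01 over all genes tested. In 32 members both double knockout libraries lay below both wild type libraries, an order seen in 25.2% of all genes. The exception was Atp5l, a low count gene. Together the members took 1.43% and 1.51% of all counts in double knockout libraries 1 and 2, and 1.75% and 1.73% in wild type libraries 1 and 2. With each double knockout library set against each wild type library in turn, 33, 32, 33 and 33 members were lower, and the medians of these 4 differences ran from -0.40 to -0.34. In bulk tissue, fewer cells of a type and less RNA per cell cannot be told apart.

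**Figure D1:**
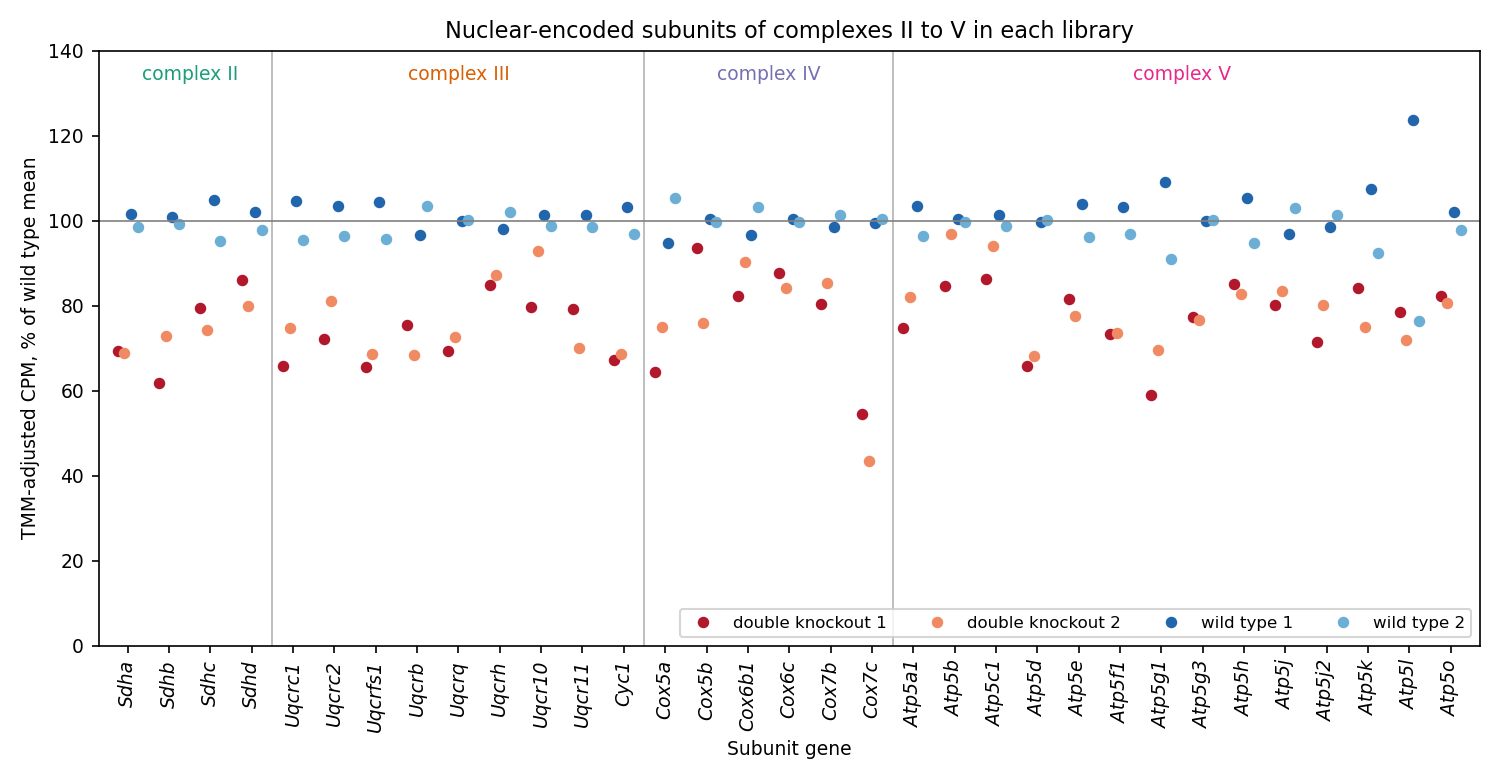
The vertical axis gives TMM-adjusted CPM as a percentage of the mean of the wild type libraries, with 1 point per library and subunit gene, grouped by complex. Double knockout points lie below both wild type points for 32 of 33 genes, and for Atp5l 1 wild type point falls among them.

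No single member passed the threshold of edgeR's quasi-likelihood test, a Benjamini-Hochberg adjusted p under 0.05 over all genes. It called 0 members lower or higher, where it called 0.0625% of genes lower, and the members' adjusted p ran from 0.121 to 0.616. At an unadjusted p under 0.05, edgeR placed 22 members lower and 0 higher, against 8.63% of genes lower. limma-voom called 0 members, against the same 0.0625% of genes lower. DESeq2 called 9 members lower and 0 higher, where it called 1.86% of genes lower and 2.08% higher. These 9 were Sdha, Sdhb, Uqcrc1, Uqcrfs1, Uqcrq, Cyc1, Cox7c, Atp5d and Atp5g1. With no filter on low counts edgeR called 12 members lower, against 3.15% of genes, and with a stricter filter 0, against 0.0547%. The counts also depended on single libraries. Without double knockout library 1 or 2, edgeR called 14 and 12 members lower, against 8.13% and 4.46% of genes, and DESeq2 called 7 and 12, against 4.45% and 2.61%. Without wild type library 1 or 2 both tools called 0 members, where edgeR called 0.0121% and 0.018% of genes lower and DESeq2 0.103% and 0.228%.

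In complex II the catalytic head stood lower than the membrane anchor. Sdha (chromosome 13, 74322254 to 74350280, mm10), the flavoprotein that oxidises succinate, was at 1026 and 1020 CPM in double knockout hearts, against 1503 and 1456 CPM in wild type hearts. Sdhb (chromosome 4, 140961203 to 140979193), the iron-sulfur subunit beside it, was at 209 and 247 CPM in double knockout hearts, against 342 and 336 CPM in wild type hearts. No value of one group fell within the range of the other for either gene. Their log2 fold changes were -0.53 (SE 0.11) and -0.57 (SE 0.12), with edgeR adjusted p of 0.15 and 0.154 and DESeq2 adjusted p of 0.0077 and 0.0203. Sdhc and Sdhd encode the membrane anchor. Sdhc was at 265 and 247 CPM in double knockout hearts, against 349.6 and 317 CPM in wild type hearts, a log2 fold change of -0.38 (SE 0.11). Sdhd was at 418 and 389 CPM in double knockout hearts, against 497 and 476 CPM in wild type hearts, a log2 fold change of -0.27 (SE 0.11), the smallest of the complex. The groups did not overlap for Sdhc or Sdhd either, but neither gene passed in edgeR or DESeq2. The difference between head and anchor was not tested.

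Complex III had a median log2 fold change of -0.48 over its 9 members. Its redox carriers were among the lowest. Uqcrfs1 (chromosome 13, 30540308 to 30545362), the Rieske iron-sulfur protein, was at 334 and 349 CPM in double knockout hearts, against 531 and 487 CPM in wild type hearts. Cyc1 (chromosome 15, 76343523 to 76346260), cytochrome c1, was at 185 and 189 CPM in double knockout hearts, against 284 and 267 CPM in wild type hearts. The double knockout libraries agreed closely with each other in both genes and stood at 67.1% and 67.9% of the wild type mean. Log2 fold changes were -0.58 (SE 0.11) for Uqcrfs1 and -0.56 (SE 0.11) for Cyc1, with edgeR adjusted p of 0.145 and 0.139 and DESeq2 adjusted p of 0.00719 and 0.00824. Cyc1 is the only member within 10 Mb of a targeted gene, 4.67 Mb from Mrtfa, and without it the complex III median was -0.45.

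The core proteins of complex III on the matrix side are Uqcrc1 and Uqcrc2, with log2 fold changes of -0.51 (SE 0.12) and -0.38 (SE 0.12). Their difference was not tested. Uqcrc1 was at 328 and 372 CPM in double knockout hearts, against 520.3 and 474 CPM in wild type hearts, and DESeq2 gave it an adjusted p of 0.045. Uqcrc2, its partner and the most abundant member of the complex per length, was at 801 and 899 CPM in double knockout hearts, against 1149 and 1071 CPM in wild type hearts. For both genes the double knockout values lay below the wild type values without overlap. Among the small accessory subunits, Uqcrq was at 50.7 and 53.2 CPM in double knockout hearts, against 73.1 and 73.3 CPM in wild type hearts, with a log2 fold change of -0.50 (SE 0.10) and a DESeq2 adjusted p of 0.0479. Uqcrh, the hinge protein that helps cytochrome c dock, and Uqcr10 had the smallest log2 fold changes of the complex, -0.22 (SE 0.10) and -0.21 (SE 0.12). Uqcrh was at 183 and 188 CPM in double knockout hearts, against 211 and 220.1 CPM in wild type hearts. Uqcr10 was at 50.4 and 58.7 CPM in double knockout hearts, against 64.0 and 62.4 CPM in wild type hearts. In each of these the groups were close without overlapping. Uqcrb was at 18.4 and 16.7 CPM in double knockout hearts, against 23.6 and 25.3 CPM in wild type hearts. Uqcr11 was at 23.6 and 20.8 CPM in double knockout hearts, against 30.1 and 29.3 CPM in wild type hearts. Neither of these low count genes overlapped between the groups or passed in edgeR or DESeq2.

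In complex IV, Cox7c and Cox5a lay furthest below wild type and the other members close to it. The 6 members are small nuclear subunits that surround the mitochondrially encoded catalytic core. Cox7c (chromosome 13, 86044816 to 86046904) was at 11.8 and 9.42 CPM in double knockout hearts, against 21.6 and 21.8 CPM in wild type hearts, 49.0% of the wild type mean and the largest difference among the 33 members, with a log2 fold change of -1.02 (SE 0.17), an edgeR adjusted p of 0.121 and a DESeq2 adjusted p of 8.87e-04. Cox5a, a subunit on the matrix side, was at 78.2 and 91.0 CPM in double knockout hearts, against 115 and 128 CPM in wild type hearts, with a log2 fold change of -0.52 (SE 0.12) and a DESeq2 adjusted p of 0.0602. The remaining 4 members were closer to wild type. Cox7b was at 178 and 189 CPM in double knockout hearts, against 219 and 225 CPM in wild type hearts. Cox6b1, which faces the intermembrane space, was at 223 and 245 CPM in double knockout hearts, against 262 and 280.0 CPM in wild type hearts. Cox6c was at 176 and 169 CPM in double knockout hearts, against 201 and 200.3 CPM in wild type hearts. In all 3 the groups stayed apart, at 83.0% to 86.3% of the wild type mean, and none passed in edgeR or DESeq2. Cox5b, which binds zinc on the matrix side, had only 272 and 127 counts in the double knockout libraries and 292 and 254 in the wild type libraries, or 9.59 and 7.77 CPM in the double knockout libraries and 10.3 and 10.2 CPM in the wild type libraries, with a log2 fold change of -0.23 (SE 0.18).

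Many of these short transcripts have near-identical processed pseudogenes, and that bears on how their reads were counted. For 13 of the 33 members, 5% or more of the 50-base windows of the transcript also occurred in another annotated gene. Annotated copies with at least 95% identity over at least 150 bases were in the count tables for 14 members. In Uqcrb, Cox7c, Atp5h and Atp5l the copies held more reads than the subunit gene in every library. The coding sequence of Cox7c (192 bases including the stop codon, chromosome 13, GENCODE M21) is shown because the pseudogene Gm12338 on chromosome 11 contains it with 0 differences.
Cox7c: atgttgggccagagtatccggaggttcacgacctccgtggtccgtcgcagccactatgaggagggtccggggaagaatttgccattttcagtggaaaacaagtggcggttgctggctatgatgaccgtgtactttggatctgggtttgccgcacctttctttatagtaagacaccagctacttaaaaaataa

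By its bases alone, a read from within this stretch matches both transcripts equally well. Whether reads across exon junctions of Cox7c were placed alike in the genome was not tested. Gm12338 was at 44.0 and 44.8 CPM in double knockout hearts, against 51.1 and 49.8 CPM in wild type hearts, and the copies together took 78.8% and 82.6% of the combined reads of Cox7c and its copies in double knockout libraries 1 and 2, and 70.3% and 69.6% in wild type libraries 1 and 2. With the copies' reads added, Cox7c had 1586 and 886 counts in double knockout and 2066 and 1784 in wild type hearts. Its log2 fold change was then -0.39 (SE 0.10) in place of -1.02, with an edgeR adjusted p of 0.17. The DESeq2 adjusted p was 0.163, so its call was lost. DESeq2 then called 8 members lower, against 1.85% of genes. The labels do not say how reads with several matches were counted.

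In complex V the rotor and catalytic subunits spanned the whole range of the complex. Atp5b (chromosome 10, 128083273 to 128090391), the catalytic beta subunit, was at 3893 and 4462 CPM in double knockout hearts, against 4619.9 and 4593 CPM in wild type hearts, a log2 fold change of -0.14 (SE 0.13) and the smallest among all members. Atp5a1, the alpha subunit that alternates with it, was at 3036 and 3337 CPM in double knockout hearts, against 4207 and 3922 CPM in wild type hearts, a log2 fold change of -0.35 (SE 0.13). The ratio of Atp5b to Atp5a1 per length was 1.65 and 1.72 in double knockout hearts, against 1.42 and 1.51 in wild type hearts. These ratios did not overlap between the groups, and 2 libraries a group allow no exact two-sided p below 0.333. Atp5c1, the gamma subunit of the central stalk, was at 850.0 and 925 CPM in double knockout hearts, against 997 and 972 CPM in wild type hearts. Its log2 fold change, -0.15 (SE 0.12), was close to that of Atp5b. Atp5d (chromosome 10, 80138632 to 80145818), the delta subunit of the same stalk, was at 116 and 120.2 CPM in double knockout hearts, against 176 and 177 CPM in wild type hearts. It stood at 67.0% of the wild type mean in tight replicates, with a log2 fold change of -0.58 (SE 0.10), an edgeR adjusted p of 0.13 and a DESeq2 adjusted p of 0.00549. Atp5e, the epsilon subunit, was at 26.1 and 24.8 CPM in double knockout hearts, against 33.2 and 30.8 CPM in wild type hearts, with an edgeR adjusted p of 0.263.

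The peripheral stalk, which keeps the catalytic head from turning with the rotor, lay below wild type in all 4 of its listed genes, none of which passed the edgeR test. Atp5f1, subunit b, was at 359 and 359.9 CPM in double knockout hearts, against 504 and 473 CPM in wild type hearts, a log2 fold change of -0.44 (SE 0.11). Atp5o, which joins the stalk to the head, was at 143 and 140.2 CPM in double knockout hearts, against 177 and 170.0 CPM in wild type hearts. The groups did not overlap in either gene. Atp5j, coupling factor 6, was at 139.6 and 145 CPM in double knockout hearts, against 169 and 179 CPM in wild type hearts. Atp5h, subunit d, was at 57.1 and 55.5 CPM in double knockout hearts, against 70.7 and 63.6 CPM in wild type hearts. These last genes of the stalk stood at 81.9% and 83.9% of the wild type mean. Of the membrane subunits f, e and g, Atp5j2 was at 103 and 115 CPM in double knockout hearts, against 141 and 145 CPM in wild type hearts. Atp5k was at 37.7 and 33.5 CPM in double knockout hearts, against 48.1 and 41.4 CPM in wild type hearts. Neither gene's groups overlapped, with log2 fold changes of -0.40 (SE 0.11) and -0.33 (SE 0.14). Atp5l alone overlapped, with 129 and 68 counts, or 4.55 and 4.16 CPM, in double knockout libraries, against 203 and 110 counts, or 7.15 and 4.42 CPM, in wild type libraries. None of these 7 genes passed in edgeR or DESeq2.

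Atp5g1 and Atp5g3 are separate genes for subunit c, the membrane ring that turns as protons pass. Atp5g3 (chromosome 2, 73908447 to 73911326) was more abundant than Atp5g1 in each library per length: 579.6 CPM per kilobase in double knockout and 753 in wild type hearts, where Atp5g1 (chromosome 11, 96068852 to 96075670) had 70.8 CPM per kilobase in double knockout and 110.4 in wild type hearts. Atp5g1 was at 38.7 and 45.7 CPM in double knockout hearts, against 71.8 and 59.8 CPM in wild type hearts, a log2 fold change of -0.64 (SE 0.14) with a DESeq2 adjusted p of 0.0375. Atp5g3 was at 416 and 412 CPM in double knockout hearts, against 537 and 538 CPM in wild type hearts, a log2 fold change of -0.38 (SE 0.11) with a DESeq2 adjusted p of 0.111. Both were lower in each double knockout library, and whether Atp5g1 changed more than Atp5g3 was not tested. The ratio of Atp5g3 to Atp5g1 per length was 8.96 and 7.53 in double knockout and 6.25 and 7.51 in wild type hearts. The groups did not overlap but nearly met, at 7.53 in double knockout library 2 and 7.51 in wild type library 2.

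Atp5g1 differed from its copy Gm10039 at 1 of 411 coding bases, G385A, counted from 1 at the A of the start codon with the base of Atp5g1 first. The end of the coding sequence is shown for both, 5′ to 3′, with that base in capitals.
Atp5g1: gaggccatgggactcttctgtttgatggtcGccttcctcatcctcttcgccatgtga
Gm10039: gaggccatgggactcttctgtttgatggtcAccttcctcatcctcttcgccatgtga

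Gm10039 was at 34.9 and 36.9 CPM in double knockout hearts, against 58.1 and 56.1 CPM in wild type hearts, a log2 fold change of -0.67 (SE 0.11), close to that of Atp5g1. With both added, Atp5g1 had 2088 and 1350 counts in double knockout and 3685 and 2885 in wild type hearts. The log2 fold change was -0.65 (SE 0.12) and the DESeq2 adjusted p 0.00745, so the lower level of Atp5g1 was as large with the copy as without it. Atp5l shares 309 bases with Gm10221 without a difference. Gm10221 was at 67.2 and 70.8 CPM in double knockout hearts, against 78.3 and 74.1 CPM in wild type hearts, and the copies held 91.7% to 94.5% of the combined reads. The log2 fold change of Atp5l was -0.16 with copies added and -0.41 without. For Atp5h, whose copy Gm10250 was at 142 and 147 CPM in double knockout hearts, against 165 and 192 CPM in wild type hearts, it was -0.29 with and -0.25 without copies. For Uqcrb it was -0.43 with and -0.48 without copies. Across the 33 members, the level per length was lower where more of the transcript was shared (Spearman rho -0.45, Pearson r -0.57; all points come from the same 4 libraries). The 20 members with less than 5% shared had a median log2 fold change of -0.38, all 20 negative, and the other 13 had -0.30. For Uqcr10, which has a copy of part of its transcript annotated as antisense RNA, it was -0.13 with and -0.21 without copies. Exons of 8 members, Uqcrc2, Uqcrb, Cox5a, Atp5a1, Atp5f1, Atp5j, Atp5l and Atp5o, also overlap a gene on the opposite strand, and reads of such pairs cannot be told apart unless the counting used strand.

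**Figure D2:**
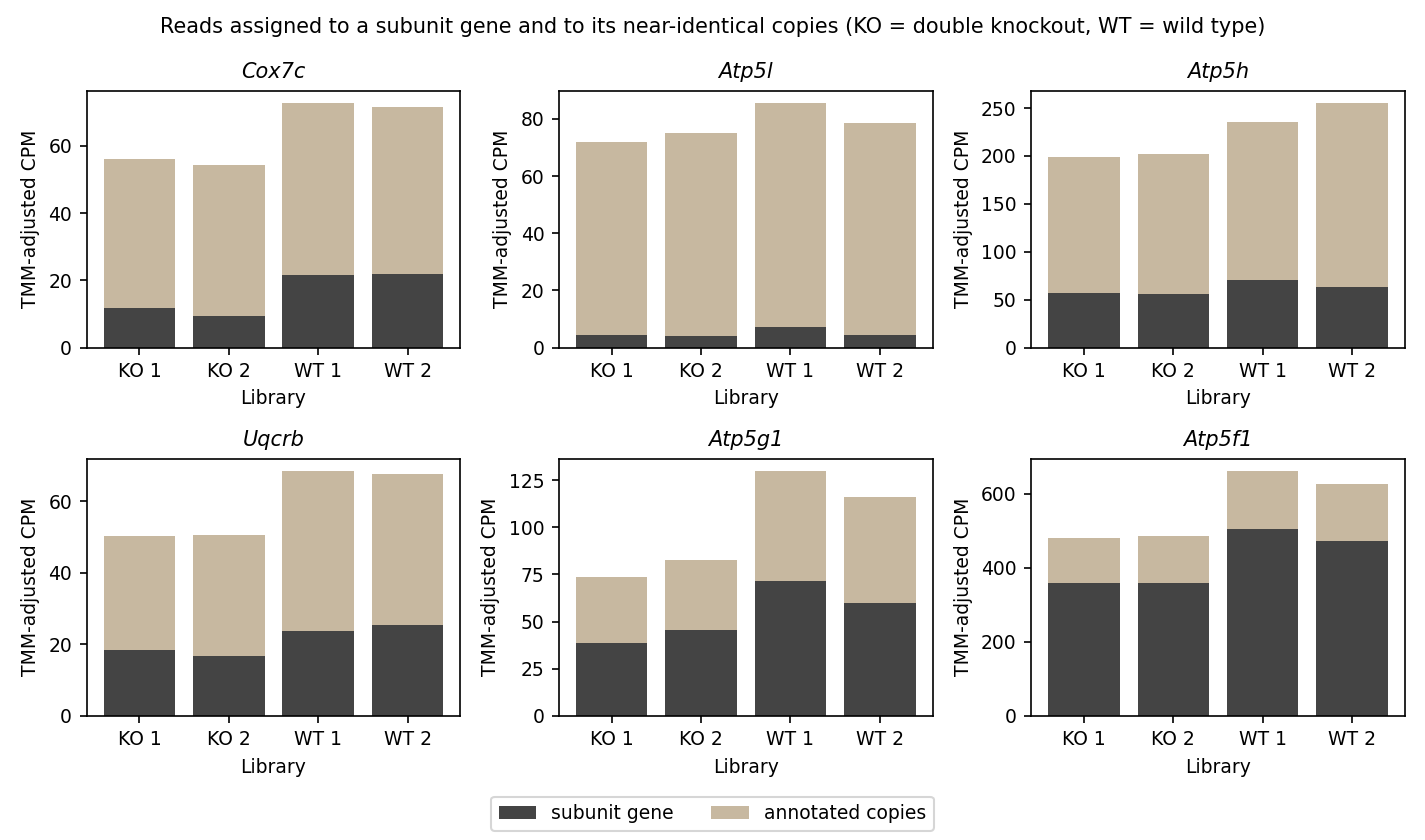
Bars give TMM-adjusted CPM in each library for 6 subunit genes (dark) with the reads of their near-identical annotated copies stacked on top (light). In all 6 panels the combined height of each double knockout bar is below that of each wild type bar, and for Cox7c, Atp5l, Atp5h and Uqcrb the light part is the larger one.

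Promoter sequence was available for 26 of the 33 members (RefSeq, GRCm38.p6) and was read over the 250 bases before the start annotated there. For Atp5g1 that start lies inside the GENCODE M21 span given above, so part of its window does too. The promoters of Atp5g1 and Atp5g3 are shown because these genes encode the same subunit and both lay lower. They are given 5′ to 3′ on the strand of the gene, with a match to the oestrogen-related receptor motif TNAAGGTCA, on either strand, in capitals.
Atp5g1 (chr11:96075632-96075881, minus strand): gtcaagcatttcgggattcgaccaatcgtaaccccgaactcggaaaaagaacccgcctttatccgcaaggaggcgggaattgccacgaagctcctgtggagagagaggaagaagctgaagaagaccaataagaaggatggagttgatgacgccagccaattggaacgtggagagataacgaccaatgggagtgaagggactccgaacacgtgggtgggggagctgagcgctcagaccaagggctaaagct
Atp5g3 (chr2:73911327-73911576, minus strand): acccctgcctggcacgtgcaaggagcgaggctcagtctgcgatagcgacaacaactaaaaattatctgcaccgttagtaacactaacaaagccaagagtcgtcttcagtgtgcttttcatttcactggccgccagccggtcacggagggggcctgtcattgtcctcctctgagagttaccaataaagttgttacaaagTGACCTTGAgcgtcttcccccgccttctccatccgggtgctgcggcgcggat

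This motif was in 1 of the 26 members (3.85%), Atp5g3, and in 1.14% of 32851 promoters. A member counted if any of its listed promoters matched, whereas the share over all promoters counts each promoter singly. The shares of members and of promoters are thus in unlike units. On either strand, the letters CCGGAAGT, bound by ETS factors such as GABP, were in 3 members (11.5%), Uqcrh, Uqcr11 and Atp5h, against 2.88% of all promoters. The palindromic NRF1 motif was in Atp5k alone, 3.85% against 0.782%. AAGATGGCG, bound by YY1, was in Atp5j alone, 3.85% against 0.606%. The CArG box, to which serum response factor binds, was in 0 of the 26 members and in 1.47% of all promoters. TATAAA, the TATA box, was in Atp5l alone, 3.85% against 12.4%. Such matches describe letters in a short window and show no binding.

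**Figure D3:**
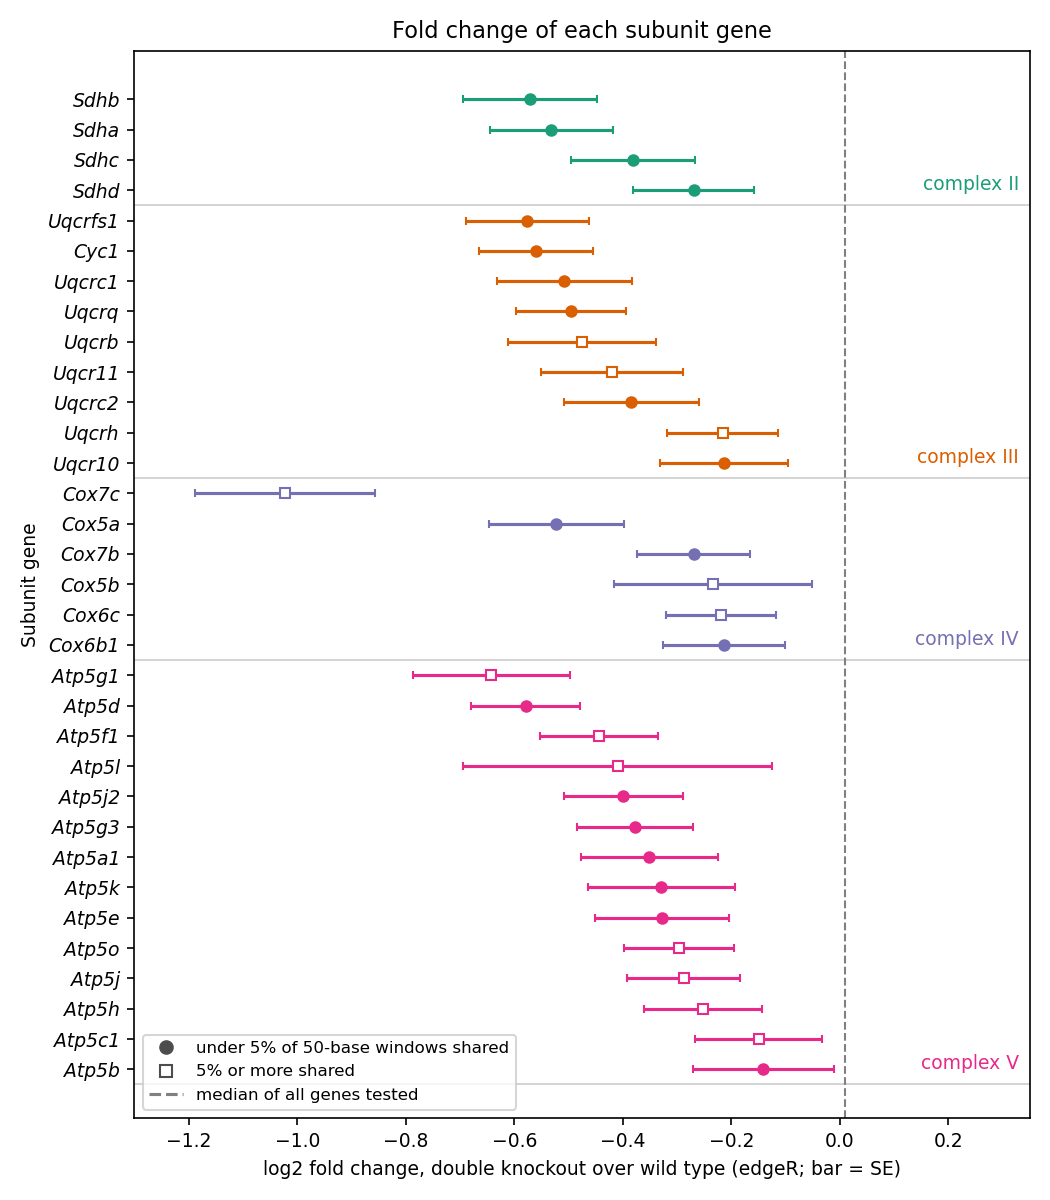
Each point is the edgeR log2 fold change of 1 subunit gene, double knockout over wild type, with its SE as a bar. Open squares are genes with 5% or more of their transcript shared with another annotated gene. All 33 points lie left of the dashed median of all genes, from -1.02 for Cox7c to -0.14 for Atp5b.

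Set side by side, complexes II and III stood lower than complexes IV and V. The median log2 fold changes were -0.46 for complex II, -0.48 for complex III, -0.25 for complex IV and -0.34 for complex V. The replicate libraries gave much the same order. As log2 differences from the wild type mean, the medians in double knockout libraries 1 and 2 were -0.43 and -0.44 for complex II and -0.47 and -0.46 for complex III. They were -0.30 and -0.32 for complex IV and -0.31 and -0.34 for complex V. The wild type libraries lay at -0.04 to 0.04 in each complex. The gap between the pairs of complexes was slightly larger than the difference between replicate libraries within either genotype, but single members overlapped widely between complexes and no test was run on these medians. Among members with less than 5% of their transcript shared with another gene, the medians were -0.46, -0.50, -0.27 and -0.35 in complexes II, III, IV and V. DESeq2 called 2 of 4 members lower in complex II, 4 of 9 in complex III, 1 of 6 in complex IV and 2 of 14 in complex V. Over all genes it called 1.86% lower. The complex IV call was Cox7c, which was not called once its copies' reads were added (DESeq2 adjusted p 0.163). By group means per length, the order of levels within complexes II and IV was the same in both genotypes. The neighbours Cyc1 and Uqcr10 in complex III, and Atp5g1 and Atp5h in complex V, stood in the opposite order by group means, but their order also differed between libraries of a genotype. Across the 33 members the log2 fold change had a Spearman rho of -0.15 with transcript length (Pearson r -0.05) and of 0.33 with the level per length (Pearson r 0.34); the points share the same 4 libraries.

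Other genes of the same machinery were read for comparison. Over all genes, 48.7% had a negative fold change, and DESeq2 called 1.86% lower and 2.08% higher. Of 16 further subunits and carriers of complexes II to V, among them tissue isoforms of complex IV and cytochrome c, 13 had a negative fold change (median -0.36) and DESeq2 called 1 lower and 0 higher. That gene was Cox7a1, a heart and muscle isoform, at 10.2 and 11.4 CPM in double knockout hearts, against 19.8 and 18.7 CPM in wild type hearts. Cox8b, another muscle isoform, was at 13.8 and 13.3 CPM in double knockout hearts, against 20.2 and 19.3 CPM in wild type hearts. Cox4i1, with the highest mean CPM of this list over the 4 libraries, was at 165 and 176 CPM in double knockout hearts, against 191 and 197 CPM in wild type hearts. Neither Cox8b nor Cox4i1 passed in edgeR or DESeq2. Among 36 assembly factors for complexes II to V, 34 were tested, 29 were negative (median -0.31), and DESeq2 called 6 lower and 0 higher. They were less even between libraries, with medians of -0.14 and -0.51 in double knockout libraries 1 and 2. Lyrm7, a chaperone for the Rieske protein, was at 6.07 and 4.22 CPM in double knockout hearts, against 16.5 and 12.7 CPM in wild type hearts, a log2 fold change of -1.49 (SE 0.25) with a DESeq2 adjusted p of 1.56e-04. Atpaf2, which assembles the head of the ATP synthase, was at 19.1 and 17.8 CPM in double knockout hearts, against 31.0 and 29.1 CPM in wild type hearts. Lrpprc, which stabilises mitochondrial messenger RNAs, was at 166 and 182 CPM in double knockout hearts, against 324 and 256 CPM in wild type hearts. DESeq2 adjusted p was 0.0121 for Atpaf2 and 0.00564 for Lrpprc. edgeR called 0 genes in either list over all genes, with 7 and 11 lower, and 1 higher in each, at an unadjusted p under 0.05. Of all genes tested, 8.63% were lower at that unadjusted threshold.

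Complex I, which feeds the same chain from NADH, had 35 of 36 nuclear subunits negative with a median of -0.42, and DESeq2 called 4 lower and 0 higher. Over all genes, 48.7% had a negative fold change, and DESeq2 called 1.86% lower and 2.08% higher. Ndufb10 was at 116 and 88.5 CPM in double knockout hearts, against 175 and 169 CPM in wild type hearts. Ndufa11 was at 50.8 and 48.2 CPM in double knockout hearts, against 77.4 and 68.3 CPM in wild type hearts. Ndufs1, with the highest mean CPM of the list over the 4 libraries, was at 532 and 567 CPM in double knockout hearts, against 798 and 734 CPM in wild type hearts. All 3 were past the DESeq2 threshold and short of the edgeR one. The medians of complexes II to V lay on both sides of the complex I median. Of the mitochondrially encoded partners, mt-Co1 was at 46329.5 and 44974 CPM in double knockout hearts, against 54394 and 53122 CPM in wild type hearts. mt-Cytb was at 14384 and 15777 CPM in double knockout hearts, against 17258 and 18184 CPM in wild type hearts. Neither overlapped between the groups, at -0.24 (SE 0.12) and -0.23 (SE 0.13) on the log2 scale, and neither passed in edgeR or DESeq2. The other 4 mitochondrially encoded subunits of complexes IV and V had at most 22 counts in any library and were not tested. These counts are not read as levels, since the treatment of reads with several matches is not known. Why they were so few was not tested. Import and outer membrane genes, which serve mitochondria at large, had 11 of 12 members negative (median -0.38) and 1 DESeq2 call. That call was Hspd1, a matrix chaperone, at 155 and 140.3 CPM in double knockout hearts, against 246 and 199 CPM in wild type hearts. Timm17a and Hspa9, which act in protein import, stood at 73.3% and 76.1% of the wild type mean. edgeR called 0 genes of complex I or of the import list over all genes, with 24 and 7 lower and 0 higher at an unadjusted p under 0.05. Of all genes tested, 8.63% were lower at that unadjusted threshold.

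Markers of the cell types that a heart sample holds were set beside these values, and their part in the result was not tested. The 12 cardiomyocyte markers had a median of -0.15, with 9 negative, where 48.7% of all genes tested were negative. Their medians were -0.11 and -0.20 in double knockout libraries 1 and 2. In 7 of these markers both double knockout libraries lay below both wild type libraries, an order seen in 25.2% of all genes. In 1 marker both lay above, and in 4 the groups overlapped. Myh6, the main cardiac myosin, was at 14825 and 12968 CPM in double knockout hearts, against 16361 and 17163 CPM in wild type hearts, and Tnnt2, cardiac troponin T, at 8731 and 7569 CPM in double knockout hearts, against 7773 and 7602 CPM in wild type hearts. Fibroblast markers had a median of -0.01 and summed to 3497 and 4517 CPM in double knockout and 4189 and 4487 CPM in wild type hearts. Endothelial markers had a median of 0.04 and summed to 1577 and 1675 CPM in double knockout and 1604 and 1675 CPM in wild type hearts. Smooth muscle and pericyte markers had a median of -0.29 and summed to 1069 and 1018 CPM in double knockout and 1139 and 1209.6 CPM in wild type hearts. Macrophage markers had a median of 0.27 and summed to 125 and 114 CPM in double knockout and 97.7 and 99.9 CPM in wild type hearts. Epicardial markers had a median of 0.10 and summed to 215 and 175 CPM in double knockout and 170.4 and 160.3 CPM in wild type hearts. Red cell markers had a median of -0.22 and summed to 463 and 806 CPM in double knockout and 752 and 553 CPM in wild type hearts. DESeq2 called 1 epicardial marker higher and 1 red cell marker lower, and 0 in the lists before them. Over all genes it called 2.08% higher and 1.86% lower. Markers of fat and fast skeletal muscle differed among themselves. Ucp1, which defines brown fat, had at most 1 count in any library and Adipoq likewise, while the fast skeletal myosins Myh1, Myh2 and Myh4 had at most 13. The adipose list summed to 613 and 486 CPM in double knockout and 662 and 639.7 CPM in wild type hearts, most of it Fabp4, which vessels also express. Its tested genes were Cidea, Fabp4, Prdm16 and Dio2, with a median of -0.46 and 1 DESeq2 call lower. Of the fast skeletal list Ckm, which the heart also expresses and DESeq2 called lower, held most of the sum of 1086 and 1249 CPM in double knockout and 2087 and 1965 CPM in wild type hearts. Actn3, of the same list, lay the other way, with 24 and 26 counts in double knockout libraries and 4 and 7 in wild type libraries, a log2 fold change of 2.47 (SE 0.56) and an edgeR adjusted p of 0.156. Lung and lymphoid markers summed to at most 2.33 CPM in any library.

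**Figure D4:**
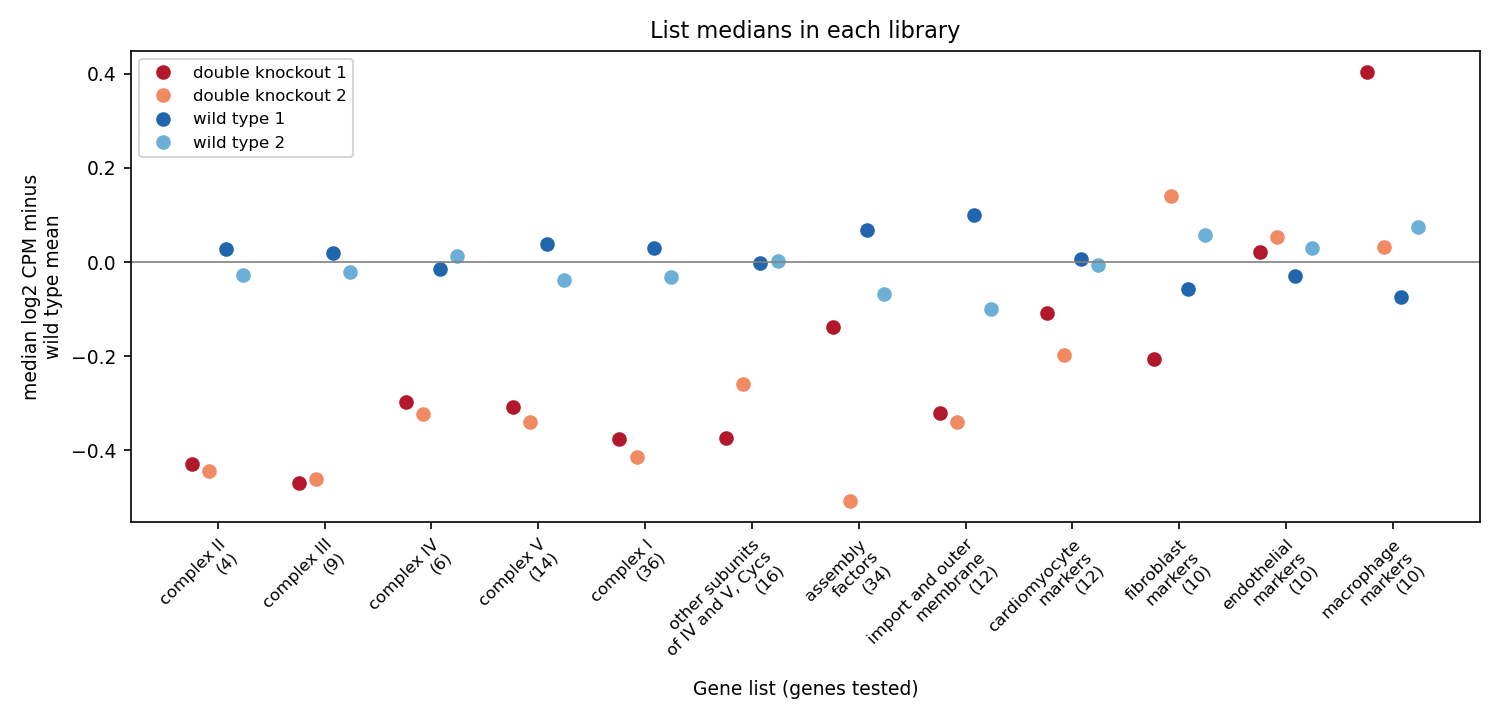
The vertical axis gives the median over a gene list of log2 CPM minus the mean of the wild type libraries, with 1 point per library and the number of genes tested in brackets. Complexes I to V and the import list sit between -0.30 and -0.47 in both double knockout libraries, and cardiomyocyte markers at -0.11 and -0.20.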

How the data were processed

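RNA sequencing of hearts at birth was analysed in 2 MRTFA/B double knockout and 2 wild type libraries, grouped by title. Each deposited table gave counts per gene, unnormalized, made by the authors with HTSeq on mm10, per the submitters' processing notes, which also name DESeq 1.10.1. No source used here gives the aligner, annotation release, strand setting or treatment of reads with several matches. Of 43346 identifiers, 42462 matched GENCODE M21, and 0 rows named no gene.

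All 4 libraries entered 1 fit with edgeR 4.0.16 (R 4.3.3): filterByExpr defaults, TMM factors, the robust quasi-likelihood test and Benjamini-Hochberg adjustment over 16009 genes. DESeq2 1.42.0 and limma-voom (limma 3.58.1) were alternatives. All were checked on simulated data. Copies were found with blastn 2.17.0 against GENCODE M21 transcripts. Levels per length used 1 principal transcript per gene. Precision was limited in the members with few counts, such as Atp5l and Cox5b, and why their counts were few was not tested. Copies held 91.7% to 94.5% of the combined reads of Atp5l and its copies. Of the transcript windows of Cox5b, 25.9% also occurred in another annotated gene. The Cox5b copy Gm11273 differed at 3 of 390 coding bases and had 0 counts in every library. The SEs come from the fit and hold the spread between libraries as well as counting error. The members and lists were chosen with earlier results of these data known. The text names all 33 members and, from each pathway list, the 2 genes with the smallest edgeR p and the one with the highest mean CPM over all libraries. Cell type markers and copies fall outside this rule, and those named were chosen after their values were seen. Replicate numbers give no stated pairing. Other scalings, filters, tests and libraries left out were tried as alternatives.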

Additional observations from a re-analysis of the deposited data

How the results depend on the processing

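All 33 members had a negative log2 fold change under every one of the alternatives that kept them, and none reversed. edgeR called 0 members lower with RLE, upper-quartile or no composition factors, with copies' reads added or with mitochondrially encoded genes removed. In each of these it called 0.0625% of all genes lower. It also called 0 members with a stricter filter and with a replicate block, against 0.0547% and 0.0125% of genes. limma-voom called 0, against 0.0625% of genes. With no filter edgeR called 12, against 3.15% of genes, and DESeq2 called 9 in its main fit, against 1.86%. The cause of the difference was not tested. With no composition factors the medians were -0.31 over all members, -0.39, -0.40, -0.18 and -0.27 in complexes II, III, IV and V, where the median of all genes was 0.08. The complex III median was -0.43 with copies' reads added and -0.45 without Cyc1, the member within 10 Mb of a targeted gene. Without the 13 members that share windows, a choice made after seeing the data, it was -0.50 and all 20 of the members left were negative.

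With 1 library left out, edgeR called 0 to 14 members lower and DESeq2 0 to 12. The medians then ran from -0.44 to -0.34 over all members, -0.52 to -0.41 in complex II, -0.47 to -0.44 in complex III, -0.33 to -0.26 in complex IV and -0.39 to -0.29 in complex V. The same-numbered libraries correlated at -0.105 in their deviations from the group means, so the numbers are not taken as pairs. With a replicate block, DESeq2 called 0 members lower, where it called 0.481% of genes. edgeR called 0 with that block, against 0.0125% of genes, with a median of -0.38 over the members. A crossed pairing, also added after seeing the data, gave 0 edgeR calls among members and 3 lower among all genes.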
